A study of Homo sapiens with 3 samples.

Results

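A set of 9 genes of the TGF-beta and YAP pathways were followed in Cal62 cells, a human line of anaplastic thyroid carcinoma, after knockdown of the RNA-editing enzyme ADAR1. They were picked by symbol: the ligands TGFB1 and TGFB2, the receptors TGFBR1 and TGFBR2, the coactivator YAP1, its inhibitor AMOTL2, and the target genes CCN1, CCN2 and ANKRD1. All 9 of these 9 genes, among 58333 in the deposited table, were found by Ensembl identifier and passed the filter on low values. Cells were grown with serum and transfected with a negative control siRNA (siControl) or with 1 of 2 siRNAs against ADAR1 (siADAR1 #1 and siADAR1 #2), all delivered with the same lipid reagent. There were 2 libraries of poly(A)+ RNA for each siRNA, 6 in all. The labels name 1 sample per siRNA, and the 2 columns of values for each were treated as independent biological replicates, which the methods of the study give. All libraries came from 1 cell line, and how long after transfection RNA was isolated is not given in the sources used here.

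TGF-beta ligands are secreted in a latent form and, once released, bring the type II receptor TGFBR2 and the type I receptor TGFBR1 together, and the latter phosphorylates SMAD2 and SMAD3. YAP1 is held out of the nucleus by the Hippo kinases and by angiomotin proteins such as AMOTL2, and in the nucleus it works through TEAD factors. CCN1, CCN2 and ANKRD1 are classical readouts of YAP and TEAD, CCN2 is also induced by SMADs, and AMOTL2 is itself a YAP target that feeds back on YAP.

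The number of reads assigned to genes ran from 30114840 to 50029763 per library. Values below are normalized counts, that is reads divided by the size factor of the library, and 3 reads corresponded to 2.81 to 4.39 normalized counts. The targeted gene, ADAR, stood at 10906 and 11701 in siControl, 1328 and 2246 with siADAR1 #1, and 1663 and 2928 with siADAR1 #2, so every knockdown library was below both controls. Of 7 markers of thyroid follicular cells 5 passed the filter, with NKX2-1 at 0 reads in every library and PAX8 the most abundant. Their summed level was 14298 to 16115 in siControl, 10509 to 15226 with siADAR1 #1 and 2819 to 5705 with siADAR1 #2. Nearly all of it was PAX8, at 13927 and 15868 in siControl and 2542 and 5484 with siADAR1 #2. FOXE1 was also lower with siADAR1 #2 (249 and 151 in siControl, then 96.4 and 70.3). TSHR (70.8 and 73.4, then 95.3 and 107) and TG (33.8 and 0, then 62.4 and 35.2) were higher. SLC5A5 was level (8.71 and 7.14, then 7.94 and 7.32). All 5 epithelial keratin and adhesion markers were present, at a summed 67785 to 106204, most of it KRT8 and KRT18. With siADAR1 #2, KRT18 was lower (48692 and 38662 in siControl, then 25217 and 23116). KRT19 (2887 and 2952, then 7147 and 6164) and EPCAM (1926 and 1681, then 2140 and 2366) were higher. KRT8 (39069 and 30769, then 43025 and 36104) and CDH1 (210 and 39.8, then 196 and 36.6) overlapped siControl. Fibroblast markers summed to 17.8 to 59.9 and endothelial markers to 38.8 to 69.7 in any library. The 5 leukocyte markers summed to 124 to 134 with siADAR1 #1, 39.8 to 47.9 in siControl and 27.2 to 30.8 with siADAR1 #2, with CD14 the only one past the filter and CD3E at 0 reads. The part of these marker differences in the results below was not tested, and in bulk RNA fewer cells of a kind and less RNA per cell cannot be told apart.

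The 9 genes did not move as a block, and the siRNAs moved different ones. With siADAR1 #1, CCN2, AMOTL2 and CCN1 rose and no fall of a member passed the limits given below. With siADAR1 #2, ANKRD1, TGFB2 and CCN2 rose while TGFBR1, TGFBR2 and TGFB1 fell. A gene was called when limma gave an adjusted p below 0.05 and a log2 fold change (log2FC) beyond 0.5 in either direction, over 20858 genes tested. By this rule siADAR1 #1 called 3 of 9 members, beside 16.8% of all genes tested, with 3 higher (background 6.18%) and 0 lower (background 10.6%). siADAR1 #2 called 6 of 9 members, beside 26.6% of all genes, with 3 higher (background 11.1%) and 3 lower (background 15.5%). CCN2 was called higher with each siRNA, in comparisons that share the siControl libraries. Of all genes called with siADAR1 #1, 36.8% were higher, a share that was 53.3% after each library was centred on its median and 47.7% after quantile normalization, and no member changed direction under either.

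**Figure D1:**
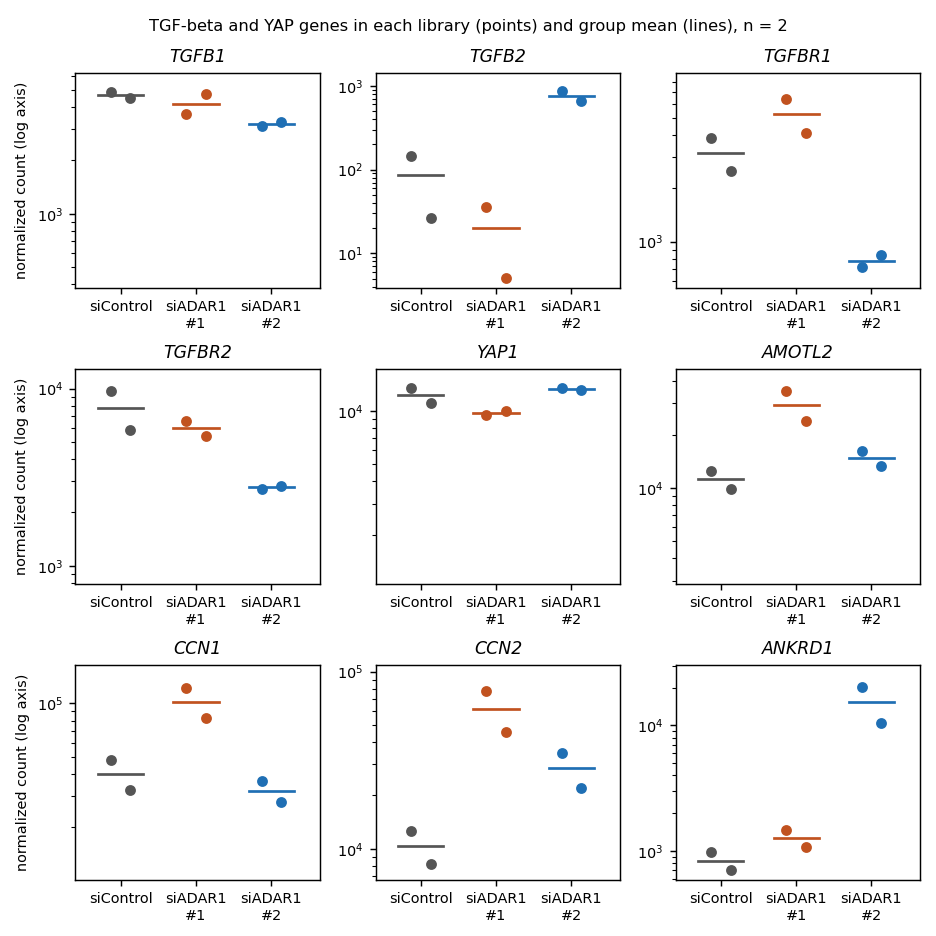
Normalized counts of the 9 genes (log axis) in the 2 libraries of siControl, siADAR1 #1 and siADAR1 #2, with points for libraries and lines for group means. ANKRD1 stood at 10495 and 20402 with siADAR1 #2 against 697 to 1456 in the other 4 libraries, while CCN2 in both siADAR1 groups lay above both controls.

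The ligand genes differed in level and in response. TGFB1 (chr19:41301587-41353922, GRCh38) encodes the best known ligand of the family. Its normalized counts were 4864 and 4505 in siControl, 3656 and 4716 with siADAR1 #1, and 3133 and 3299 with siADAR1 #2. The siADAR1 #1 libraries overlapped the controls, whereas both siADAR1 #2 libraries lay below every other library. With siADAR1 #2 TGFB1 fell 1.46-fold (log2FC -0.54, standard error 0.14, adjusted p = 0.0244 by limma). This call sat close to the size limit and was lost whenever any 1 of the 4 libraries compared was left out, with an adjusted p of 0.0685 to 0.134 (0.0107 to 0.134 over all alternatives). With siADAR1 #1 the log2FC was -0.17 (standard error 0.14, adjusted p = 0.453), and without siADAR1 #1 replicate 1 it was 0.01. Of the exon bases of TGFB1, 6.59% lie opposite exons of HNRNPUL1, an abundant gene at 11790 to 27680 normalized counts. Whether the counting used strand is not given in the sources used here, so reads in that stretch cannot be assigned with certainty.

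TGFB2 (chr1:218345336-218444619), a second ligand of the same receptors, was the scarcest member in siControl. Its reads were 132 and 26 in siControl, 38 and 4 with siADAR1 #1, and 772 and 445 with siADAR1 #2, which correspond to 144 and 26.5, 35.5 and 5.02, and 875 and 652 normalized counts. The 2 control libraries themselves were far apart, and the higher siADAR1 #1 library lay between them. Both siADAR1 #2 libraries lay above all others. TGFB2 rose 11.6-fold with siADAR1 #2 (log2FC 3.54, standard error 0.88, adjusted p = 0.0191 by limma). Without siControl replicate 2 the log2FC was 2.37 and the adjusted p 0.126, and without siADAR1 #2 replicate 1 the adjusted p was 0.0876 (0.000914 to 0.126 over all alternatives). With siADAR1 #1 the log2FC was -1.96 with a standard error of 0.88 and an adjusted p of 0.167, which did not pass. The antisense gene TGFB2-AS1 and the overlapping transcript TGFB2-OT1 share 11.6% and 22.7% of the TGFB2 exon bases, and neither exceeded 26.4 normalized counts.

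Both receptor genes fell with siADAR1 #2. TGFBR1 (chr9:99104038-99154192), the type I receptor kinase, was at 3854 and 2505 in siControl, 6398 and 4099 with siADAR1 #1, and 719 and 836 with siADAR1 #2. The 3 groups did not overlap, with siADAR1 #1 highest and siADAR1 #2 lowest. The fall with siADAR1 #2 was 4.0-fold (log2FC -2.0, standard error 0.26, adjusted p = 0.00131 by limma), and it was called under each of the 16 alternatives. With siADAR1 #1 the log2FC was 0.72 (standard error 0.26, 95% confidence interval 0.13 to 1.31) and the adjusted p 0.0927, which did not pass. Without siADAR1 #1 replicate 2 it was 1.04, with an adjusted p of 0.0314 (0.0314 to 0.409 over all alternatives).

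TGFBR2 (chr3:30606601-30694142), the type II receptor that binds ligand first, was at 9653 and 5818 in siControl, 6549 and 5362 with siADAR1 #1, and 2707 and 2834 with siADAR1 #2. The control and siADAR1 #1 libraries overlapped, and both siADAR1 #2 libraries were lower than the rest. TGFBR2 fell 2.70-fold with siADAR1 #2 (log2FC -1.44, standard error 0.22, adjusted p = 0.00271 by limma), also under each of the 16 alternatives. With siADAR1 #1 the log2FC was -0.34 (standard error 0.22, adjusted p = 0.34), and without siControl replicate 1 it was 0.03.

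YAP1 itself was close to level. YAP1 (chr11:102110447-102233424) stood at 13465 and 11163 in siControl, 9433 and 10030 with siADAR1 #1, and 13527 and 13143 with siADAR1 #2. Its log2FC was -0.33 with siADAR1 #1 (95% confidence interval -0.61 to -0.05, adjusted p = 0.0965 by limma) and 0.12 with siADAR1 #2 (-0.16 to 0.40, adjusted p = 0.502). Both siADAR1 #1 libraries were below both controls, by an amount that did not pass the test. Without siControl replicate 2 the siADAR1 #2 value was -0.01.

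AMOTL2 (chr3:134355347-134375479), which binds YAP1 and tethers it outside the nucleus, rose with siADAR1 #1. Its normalized counts were 12537 and 9868 in siControl, 35122 and 23795 with siADAR1 #1, and 16083 and 13236 with siADAR1 #2. All 4 knockdown libraries were above both controls, and the siADAR1 #1 libraries were above all others. The rise with siADAR1 #1 was 2.6-fold (log2FC 1.38, standard error 0.20, adjusted p = 0.00565 by limma), and each of the 16 alternatives called it. With siADAR1 #2 the log2FC was 0.39 (95% confidence interval -0.08 to 0.86, adjusted p = 0.194).

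CCN1 (chr1:85580761-85584589) encodes CYR61, a secreted matricellular protein, and per length it was the highest member in siControl. Its normalized counts were 47607 and 32531 in siControl, 122058 and 82593 with siADAR1 #1, and 36319 and 27627 with siADAR1 #2. Both siADAR1 #1 libraries were above all others, and the siADAR1 #2 libraries overlapped the controls. CCN1 rose 2.55-fold with siADAR1 #1 (log2FC 1.35, standard error 0.24, adjusted p = 0.00996 by limma). The adjusted p was 0.0711 without siControl replicate 2 and 0.054 without siADAR1 #1 replicate 1 (0.000676 to 0.0711 over all alternatives). With siADAR1 #2 the log2FC was -0.31 (95% confidence interval -0.87 to 0.25, adjusted p = 0.379).

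CCN2 (chr6:131948176-131951372) encodes CTGF, the related matricellular protein induced by both YAP and SMADs. It was at 12538 and 8186 in siControl, 77708 and 45352 with siADAR1 #1, and 34819 and 22102 with siADAR1 #2. The 3 groups did not overlap, with the controls lowest and siADAR1 #1 highest. CCN2 rose 5.86-fold with siADAR1 #1 (log2FC 2.55, standard error 0.31, adjusted p = 0.00343 by limma), a call made under each of the 16 alternatives. It rose 2.74-fold with siADAR1 #2 (log2FC 1.45, standard error 0.31, adjusted p = 0.0109). That second call was lost without siControl replicate 2 (adjusted p 0.0877) and without siADAR1 #2 replicate 1 (adjusted p 0.0677), over a range of 0.000109 to 0.0877. LINC01013 lies opposite 11.9% of the CCN2 exon bases and was at 1.47 to 8.79 normalized counts.

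ANKRD1 (chr10:90912096-90921087), a nuclear ankyrin repeat protein known from stretched muscle and a standard YAP reporter gene, had the largest fitted fold change of the members against siControl. Its normalized counts were 975 and 697 in siControl, 1456 and 1077 with siADAR1 #1, and 20402 and 10495 with siADAR1 #2. The siADAR1 #2 libraries were apart from the other 4, and the siADAR1 #1 libraries lay just above the controls. ANKRD1 rose 17.7-fold with siADAR1 #2 (log2FC 4.15, standard error 0.31, adjusted p = 0.000299 by limma), and each of the 16 alternatives called it. With siADAR1 #1 the log2FC was 0.60 (95% confidence interval -0.12 to 1.32, adjusted p = 0.226).

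A different model of the spread ended some of these calls without changing the log2FC. When eBayes was run without a trend, the adjusted p was 0.0622 for CCN1 with siADAR1 #1, and with siADAR1 #2 it was 0.0906 for TGFB1, 0.0713 for TGFB2 and 0.057 for CCN2. Robust eBayes gave 0.103 for TGFB2 and 0.0653 for CCN2 with siADAR1 #2. Quantile normalization, which is a rescaling, did change the log2FC and brought TGFB1 with siADAR1 #2 to -0.40, under the size limit.

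**Figure D2:**
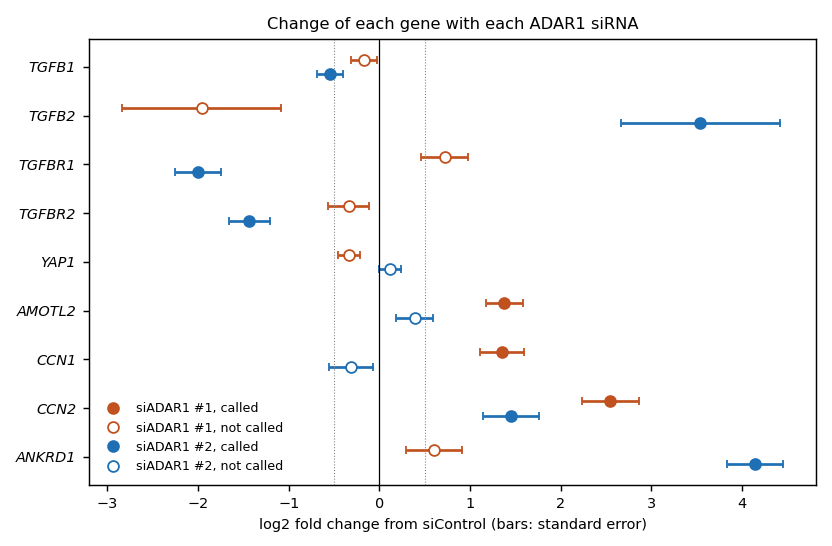
Log2 fold change from siControl of the 9 genes with siADAR1 #1 (orange) and siADAR1 #2 (blue), with bars for the standard error, filled points for called genes and dotted lines at the size limit of 0.5. CCN2 has filled points for both siRNAs, TGFBR1 and TGFB2 lie on opposite sides of 0 for the siRNAs, and TGFB2 has the widest bars.

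The promoters of the members were read for the TEAD motif, since CCN1, CCN2 and ANKRD1 among them are read out as TEAD targets. The sequences of RefSeq (GRCh38.p14) were used, with the 250 bases before each annotated start. The motif was GGAATG or its reverse complement CATTCC, so both strands were searched, and 11.9% of all 35116 promoter windows of this length hold it. Of the 9 members 8 had an entry, with 17 windows between them, and CCN1 had none. The windows of CCN2 and ANKRD1 are shown whole because these genes rose most with siADAR1 #1 and siADAR1 #2, with the TEAD motif in capitals.
CCN2: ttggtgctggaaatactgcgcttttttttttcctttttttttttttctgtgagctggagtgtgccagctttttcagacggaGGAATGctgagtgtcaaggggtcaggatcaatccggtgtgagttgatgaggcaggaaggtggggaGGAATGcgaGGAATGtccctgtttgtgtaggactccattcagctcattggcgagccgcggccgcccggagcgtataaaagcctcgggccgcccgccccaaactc
ANKRD1: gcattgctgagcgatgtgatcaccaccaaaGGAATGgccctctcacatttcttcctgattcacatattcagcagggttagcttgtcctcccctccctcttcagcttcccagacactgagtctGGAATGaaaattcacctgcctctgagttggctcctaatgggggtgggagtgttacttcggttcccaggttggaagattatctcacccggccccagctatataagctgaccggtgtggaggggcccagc

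The CCN2 window (chr6:131951373-131951622, minus strand) holds 3 matches, with 163, 98 and 89 bases between the match and the start. The ANKRD1 window (chr10:90921088-90921337, minus strand) holds 2 matches, with 214 and 122 bases between the match and the start. Single matches were found for TGFB2, AMOTL2 and YAP1, and they are given below with 12 bases on each side, because the first 2 of these genes were called and the third was not.
TGFB2: tgtcagggcgcaCATTCCacctccttcctc
AMOTL2: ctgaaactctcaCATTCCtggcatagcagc
YAP1: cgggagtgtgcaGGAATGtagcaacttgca

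These stretches lie at chr1:218345139-218345168 on the plus strand, chr3:134374499-134374528 on the minus strand and chr11:102110273-102110302 on the plus strand. Between the match and the start lie 179, 63 and 156 bases. TGFBR1 had a match in 1 of its 8 windows, and the windows of TGFB1 and TGFBR2 had none. Members with a match thus included genes that rose (CCN2, ANKRD1, TGFB2, AMOTL2), 1 that fell (TGFBR1) and 1 that was not called (YAP1). Counted by window, as the background is, 6 of the 17 windows of the members held a match, beside 11.9% of all windows. Whether these shares differ was not tested. The SMAD motif CAGACA or TGTCTG, present in 13.6% of all windows, was found in the windows of TGFB2 and ANKRD1, in 1 window of AMOTL2 and in 2 of TGFBR1. The CCN2 window had no match to these exact letters, and variants of the motif were not searched. The AP-1 motif TGAGTCA or TGACTCA, present in 4.2% of all windows, was found in no window of the members. The CArG box, which binds SRF and is present in 1.16% of windows, was found in 1 window of TGFBR1.

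Levels were compared between genes only per length, as normalized counts per kilobase of exon. In siControl CCN1 was highest at 10835 ± 2883 (SD, n = 2), followed by CCN2 at 4432 ± 1316, YAP1 at 1951 ± 258 and AMOTL2 at 1729 ± 291. TGFB1 followed at 1435 ± 77.8, then TGFBR2 at 1129 ± 396, ANKRD1 at 467 ± 110, TGFBR1 at 398 ± 119 and TGFB2 at 14.1 ± 13.7. The neighbours YAP1 and AMOTL2, TGFB1 and TGFBR2, and ANKRD1 and TGFBR1 overlapped between their libraries, and the other neighbours in this order did not. With siADAR1 #1 CCN2 reached 26317 ± 9786 and overlapped CCN1 at 27670 ± 7546. With siADAR1 #2 CCN2 led at 12173 ± 3846, overlapping CCN1 at 8646 ± 1662, and ANKRD1 reached nearly the level of CCN1, at 8630 ± 3913. TGFBR1 was then last, at 97.3 ± 10.4, below TGFB2 at 126 ± 26.1.

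**Figure D3:**
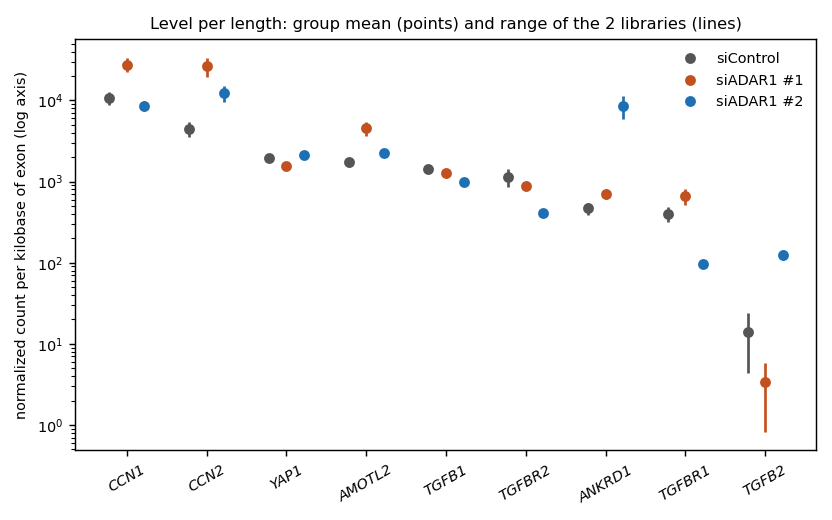
Level of each gene per kilobase of exon (log axis) in siControl (grey), siADAR1 #1 (orange) and siADAR1 #2 (blue), with points for group means and lines from the lower to the higher of the 2 libraries. ANKRD1 with siADAR1 #2 stands near CCN1 and CCN2, and TGFB2 is lowest in siControl and with siADAR1 #1.

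A direct test of siADAR1 #2 against siADAR1 #1 asked whether the siRNAs themselves differed. It called 7 of 9 members, beside 32.8% of all genes, with 2 higher with siADAR1 #2 (background 16.7%) and 5 lower (background 16.1%). The higher genes were TGFB2 by 5.50 on the log2 scale (standard error 0.88, adjusted p = 0.00233 by limma) and ANKRD1 by 3.54 (standard error 0.31, adjusted p = 0.000259). TGFBR1 was 6.59-fold lower with siADAR1 #2 (log2 difference -2.72, standard error 0.26, adjusted p = 0.00034), and CCN1 was 3.17-fold lower (-1.66, standard error 0.24, adjusted p = 0.00155). TGFBR2 (-1.10, adjusted p = 0.00671) and AMOTL2 (-0.99, adjusted p = 0.00728) were lower as well. CCN2 was 2.14-fold lower with siADAR1 #2 (-1.10, standard error 0.31, adjusted p = 0.0275). This last call was lost without siADAR1 #1 replicate 1 (-0.71, adjusted p 0.146) and without siADAR1 #2 replicate 2 (-0.77, adjusted p 0.14), and with no filter (0.0517), robust eBayes (0.112) or no trend (0.094). Of all genes called between the siRNAs, 51.0% were higher with siADAR1 #2, and 40.0% after median-centring. The members not called were TGFB1 (-0.37, 95% confidence interval -0.70 to -0.04, adjusted p = 0.0796) and YAP1, whose difference of 0.45 (0.18 to 0.73) had an adjusted p of 0.0204 but stayed under the size limit. ADAR differed by 0.35 on the log2 scale between the siRNAs (adjusted p = 0.404), which was not called.

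With the 4 knockdown libraries taken as 1 group against siControl, limma called 0 of 9 members, as it called 0% of all genes, and voom on the recovered reads also called 0. The smallest adjusted p of any gene by limma was 0.0988, so not even the targeted gene ADAR was called. In this fit the difference between the siRNAs counts as spread, and the absence of calls says nothing particular about the members. Adjusted p-values of the members ran from 0.171 to 0.901. CCN2 alone had an unadjusted p under 0.05 by limma (log2FC 2.00, standard error 0.47), beside 2916 genes or 14.0% of those tested. All 4 knockdown libraries lay above both controls for 3 of 9 members, CCN2, AMOTL2 and ANKRD1, where 12.0% of all genes did so. None of the 9 members lay below both controls in all 4, where 16.6% of all genes did so. The changes with the siRNAs were also averaged in the fit with 3 groups, so that the siRNAs could differ. By limma this called TGFBR2 (-0.89, adjusted p = 0.0166), AMOTL2 (0.88, adjusted p = 0.0123), CCN2 (2.00, adjusted p = 0.00389) and ANKRD1 (2.37, adjusted p = 0.00285). The same average called 3585 of all 20858 genes tested.

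Other genes of the pathways were taken from 9 lists with 120 genes, of which 114 were tested. siADAR1 #1 called 18 higher and 22 lower, where 6.18% and 10.6% of all genes tested were called. siADAR1 #2 called 19 higher and 25 lower, where 11.1% and 15.5% of all genes were called. These shares are the background for every list count below, and both comparisons share the siControl libraries. The median log2FC over these genes was 0.05 with siADAR1 #1 and -0.06 with siADAR1 #2, against -0.02 and -0.01 over all genes tested. Leaving out 1 library ended the call of 19 of the 29 genes examined for siADAR1 #1, of 6 of 28 for siADAR1 #2 and of 6 of 40 between the siRNAs.

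**Figure D4:**
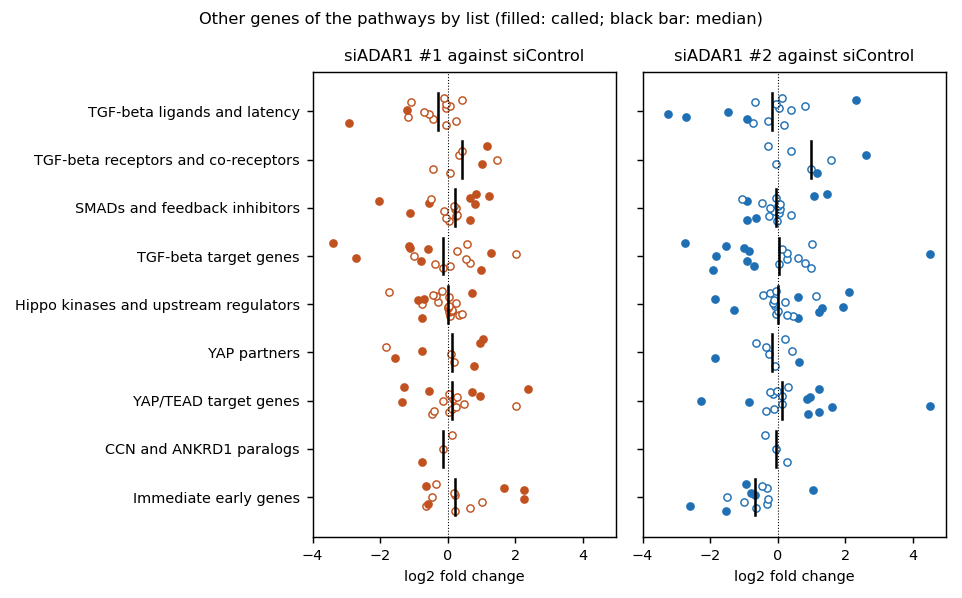
Log2 fold change of the other pathway genes in 9 lists with siADAR1 #1 (left) and siADAR1 #2 (right) against siControl. Each point is a gene, filled where called, and the black bar is the list's median, which lies between -0.68 and 1.00 in all lists.

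Among 14 tested genes of ligands and latency, 0 rose and 2 fell with siADAR1 #1, and 1 rose and 4 fell with siADAR1 #2. INHBA, the activin A subunit, had a log2FC of -2.93 with siADAR1 #1 (adjusted p = 0.00199 by limma) and -0.74 with siADAR1 #2 (adjusted p = 0.0533). The latent TGF-beta binding proteins LTBP2 and LTBP1 with siADAR1 #2 fell by 3.25 and 2.70 on the log2 scale, and ITGB8, an integrin subunit that releases latent TGF-beta, rose by 2.33 (adjusted p = 0.000377). LTBP4 was lower with siADAR1 #1 (-1.21, adjusted p = 0.0153), a call lost without either siControl library. Of 7 other receptors and co-receptors, 2 were higher and 0 lower with each siRNA: ACVR1B (1.03) and ACVR2B (1.18) with siADAR1 #1, and TGFBR3 (1.18) and ACVRL1 with siADAR1 #2. ACVRL1 had 2 and 5 reads in siControl, 9 and 2 with siADAR1 #1, and 32 and 20 with siADAR1 #2, and it passed the filter only through the siADAR1 #2 libraries, so its call is no support. ACVR2B lost its call without siControl replicate 1, siControl replicate 2 or siADAR1 #1 replicate 1.

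SMAD3, the receptor-activated SMAD, was higher with siADAR1 #1 (0.68, adjusted p = 0.0256, lost when any compared library was left out) and lower with siADAR1 #2 (-0.89, adjusted p = 0.00506 by limma). PMEPA1, a SMAD target that damps the pathway, fell by 2.03 and 0.92. FSTL3, an activin-binding protein, was higher with both, by 0.85 and 1.45, and the siADAR1 #1 call ended without siADAR1 #1 replicate 1 or either siControl library (adjusted p 0.0843 to 0.117). The SMAD corepressor SKI fell with siADAR1 #1 (-1.12, against 0.03 with siADAR1 #2), while SMURF2, a ubiquitin ligase of the receptors, rose (0.81, against 0.08). In all, 5 of the 17 SMAD and feedback genes rose and 3 fell with siADAR1 #1, and 2 rose and 3 fell with siADAR1 #2.

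Of 17 further TGF-beta target genes, 2 rose and 6 fell with siADAR1 #1, and 1 rose and 8 fell with siADAR1 #2. SPHK1, NOX4 and HAS2 were lower with both siRNAs, at -1.14 and -1.54, -1.10 and -0.99, and -3.38 and -2.76. These siADAR1 #1 calls ended without either siControl library, as did the siADAR1 #2 call of HAS2, and that of SPHK1 with siADAR1 #1 also ended without siADAR1 #1 replicate 1. IGFBP3, the 1 gene called higher with siADAR1 #2, had 4 and 1 reads in siControl, 29 and 7 with siADAR1 #1, and 162 and 37 with siADAR1 #2. It passed the filter only through the siADAR1 #2 libraries, so this call had to favour that group.

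Of 21 Hippo kinases and upstream regulators, 1 rose and 3 fell with siADAR1 #1, and 6 rose and 2 fell with siADAR1 #2. WWC1 (KIBRA) and NF2 (merlin), which activate the Hippo kinases, rose with siADAR1 #2 by 1.93 (adjusted p = 0.000259 by limma) and 1.33 (adjusted p = 0.000509), and both had a log2FC of 0.00 with siADAR1 #1. WWC1 was at 1967 and 1859 in siControl, 1825 and 2002 with siADAR1 #1, and 8043 and 6641 with siADAR1 #2. With siADAR1 #2, MAP4K4 and MOB1B fell by 1.84 and 1.30. With siADAR1 #1, MOB1B was not called (0.13) and MAP4K4 was called lower (-0.70, adjusted p = 0.0326 by limma). That call of MAP4K4 was lost without siADAR1 #1 replicate 1 or either siControl library. Of 8 partners of YAP, 3 rose and 2 fell with siADAR1 #1, and 1 rose and 1 fell with siADAR1 #2. TEAD2 was lower with both (-1.56 and -1.86), a call that for siADAR1 #1 ended without siADAR1 #1 replicate 1 or either siControl library (adjusted p 0.0592 to 0.103). WWTR1, which encodes the YAP paralog TAZ, was higher with siADAR1 #1 (0.78, adjusted p = 0.00842, and 0.0678 without siControl replicate 1).

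Of 17 further YAP and TEAD target genes, 3 rose and 3 fell with siADAR1 #1, and 7 rose, IGFBP3 among them, and 2 fell with siADAR1 #2. NUAK2, a kinase gene induced by YAP, rose with both (2.39 and 1.24, adjusted p = 0.00167 and 0.00131 by limma), and FJX1 fell with both (-1.37 and -0.86). F3, tissue factor, rose with siADAR1 #2 by 1.62, and FOXF2 fell by 2.28. Of the 6 paralogs of the CCN and ANKRD1 members, 3 were tested, and CCN3 alone was called, lower with siADAR1 #1 (-0.75, adjusted p = 0.0348), a call that ended when any of the compared libraries was left out.

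Immediate early genes, which serum and stress induce along with CCN1 and CCN2, were the last list. Of 13 genes, 3 rose and 2 fell with siADAR1 #1, and 1 rose and 5 fell with siADAR1 #2. ATF3 was higher with both (2.27 and 1.05, the latter with an adjusted p of 0.0695 without siControl replicate 2), DUSP1 rose with siADAR1 #1 (1.66, against -0.33), and FOS and FOSL1 fell with siADAR1 #2 by 1.54 and 2.60. Directly compared, 10 of the 13 were lower and 0 higher with siADAR1 #2 than with siADAR1 #1, beside 16.1% of all genes lower. Their median difference was -1.22 on the log2 scale, against 0.00 over all genes tested. CCN1 and CCN2 were lower in the same comparison, at -1.66 and -1.10 as given above, while ANKRD1 was higher.

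The genes whose log2 values followed CCN1 most closely over the 6 libraries were ACBD5, CDK12 and GNL2 (Pearson r = 0.998, 0.997 and 0.997), and for CCN2 they were LZTFL1, ELDR and TP53TG5 (0.997, 0.996 and 0.996). Among the members, AMOTL2 was the closest to each, with r = 0.906 for CCN1 and 0.951 for CCN2, and CCN1 and CCN2 had r = 0.738 with each other. These values describe 6 libraries in 3 siRNA groups, where all genes of a library share its size factor, and the highest of 20858 genes is high by selection.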

How the data were processed

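Poly(A)+ RNA of Cal62 cells was sequenced with 75-bp paired-end reads, and the authors counted reads on genes (GRCh38 in the submitters' notes) with featureCounts and normalized with DESeq2, for which their methods prefer Salmon estimates. Which counts entered the deposited values is not given in the sources used here. The deposited values are log2 values after a variance-stabilizing transformation, whose lowest value, 0.347736, stands for a count of 0. Undoing it gave whole reads for 100% of values (tolerance 0.1). Libraries held 30114840 to 50029763 reads on genes. With 2 libraries per group the number of replicates limits precision as well, and limits from 3 reads cover counting error only. If the 2 columns per label were technical replicates, p-values would measure only technical spread.

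The log2 values of all 6 libraries were fitted in 3 groups with limma 3.58.1 (lmFit, eBayes with trend, R 4.3.3), tested two-sided and adjusted by the Benjamini-Hochberg method over the 20858 genes whose mean was at least log2 of 10 (7.617 normalized counts). The fit had 3 residual degrees of freedom, and 4 with the knockdown libraries as 1 group. Symbols and union exon lengths came from GENCODE 44 (57830 identifiers matched, 503 did not).

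The members and lists were chosen with earlier results of these data known. Named were all members, ADAR, at most 3 called genes per list and comparison with the smallest adjusted p, and 3 genes most like CCN1 and CCN2. A gene that this rule names is not reported here. Results were recomputed without a filter and with one at 50, with libraries centred on their median or quantile-normalized, with eBayes robust or lacking the trend, with the 4 libraries compared, the average of the siRNA changes, a replicate block, log2 of the normalized count plus 1, voom on the recovered reads, and with each library left out.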

Additional observations from a re-analysis of the deposited data

Results flagged for a closer look

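Of the 9 members, 7 differed between the siRNAs in the direct test (siADAR1 #2 minus siADAR1 #1, log2, limma), beside 32.8% of all genes tested. The differences were 5.50 for TGFB2 and 3.54 for ANKRD1. They were -2.72 for TGFBR1, -1.66 for CCN1, -1.10 for TGFBR2, -1.10 for CCN2 and -0.99 for AMOTL2. Thus TGFB2 and ANKRD1 were higher with siADAR1 #2 while CCN1, CCN2 and AMOTL2, YAP targets like ANKRD1, were higher with siADAR1 #1. The call of CCN2 in this test was lost with no filter, robust eBayes or no trend. ADAR itself was at 1328 and 2246 normalized counts with siADAR1 #1 and at 1663 and 2928 with siADAR1 #2. What separates the siRNAs was not tested, and effects of the knockdown and of each siRNA sequence cannot be told apart in this design.

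The same test called these named genes of the pathways. Among ligands, latency and receptors the differences were 1.92 for ITGB8, 2.19 for INHBA, -2.70 for LTBP2, -1.09 for ACVR1B, 1.09 for TGFBR3 and -1.46 for ACVR2B. Among SMAD regulators and TGF-beta targets they were -1.57 for SMAD3, 1.15 for SKI, -0.72 for SMURF2, -1.02 for JUNB and 3.33 for COL5A1. In the Hippo pathway and among YAP partners they were 1.93 for WWC1, 1.32 for NF2, -1.43 for MOB1B, 1.20 for TEAD4, -0.87 for WWTR1 and -1.63 for VGLL3. YAP targets and the paralog differed by -2.14 for FOXF2, 1.38 for F3, 1.35 for MYOF and 1.01 for CCN3. The immediate early genes FOS, DUSP1 and EGR2 differed by -1.75, -1.99 and -2.55. EGR2 had 144 and 119 reads with siADAR1 #1 and 14 and 21 with siADAR1 #2. COL5A1 had 10 and 10 reads with siADAR1 #1 and 88 and 118 with siADAR1 #2. The differences of EGR2 and COL5A1 thus rest on few reads.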

How the results depend on the processing

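Of 576 recomputed log2FC values of the members, 537 kept their direction and their side of the thresholds, 22 lost a call, 10 gained one and 7 turned direction. None of the 7 was called in the reported fit. With 1 library left out, TGFB1 with siADAR1 #1 ran from -0.36 to 0.0105, TGFBR2 with siADAR1 #1 from -0.70 to 0.0266, and YAP1 with siADAR1 #2 from -0.0142 to 0.26. In the comparison of both siRNAs, TGFB2 ran from -0.38 to 2.10, with -0.20 and -0.06 without 1 or the other siADAR1 #2 library, and YAP1 from -0.24 to 0.0289. Without a trend in eBayes, 3 members, 32 pathway genes and 4474 of all genes were called with siADAR1 #2, against 6, 44 and 5541 in the reported fit. With siADAR1 #1 the calls were 2, 13 and 1347, against 3, 40 and 3502. Leaving out 1 library gave 3 to 6 members called with siADAR1 #2, 10 to 43 pathway genes with siADAR1 #1, 3150 to 5758 genes overall with siADAR1 #2 and 392 to 3680 with siADAR1 #1, with 392 without siControl replicate 1 and 1248 without siControl replicate 2. The average of the siRNA changes called 4 members, 37 pathway genes and 3585 genes, against 0 with the knockdown libraries as 1 group.

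The replicate block called 6 members with siADAR1 #1 in place of 3, adding TGFB2, TGFBR1 and ANKRD1. It also raised the calls with siADAR1 #1 over all genes tested from 3502 to 4086, and over pathway genes from 40 to 50. Replicate deviations correlated at 0.106, 0.110 and 0.162 between groups over 20858 genes, which with 2 numbers does not establish a pairing. Replicate 1 was above replicate 2 in all 3 groups for 5 of 9 members and for 15.8% of genes.

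Median-centring moved the median log2FC of all genes with siADAR1 #1 from -0.02 to 0.12. No member turned direction under a rescaling, and the 7 turned values all came from leaving out a library.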
